A study of Mus musculus with 4 samples.

Results

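Small nucleolar RNA (snoRNA) host genes are genes whose transcripts carry snoRNAs within their introns. The 10 described here, Gas5, Snhg1, Snhg3, Snhg4, Snhg5, Snhg6, Snhg8, Snhg12, Snhg15 and Snhg20, were taken by name out of the 50600 genes in each count table. The names were chosen with earlier results of these data known. Each of the 10 is annotated as long noncoding RNA, a class of 8163 genes in the tables. All 10 were found, 9 by symbol and Snhg4 by its position.

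The 4 libraries, numbered as biological replicates 1 to 4, came from primary mouse cells of strain C57BL/6NJ that the labels call T-helper 17 (Th17), the CD4 T cells that make interleukin 17. They form 1 group with no control, no stated agent or genetic change, and neither age nor sex recorded. Each library has its own biosample record but all share 1 donor record, so the spread between them may be partly technical. The label says total RNA-seq, the title of the protocol it links says poly(A)+, and the alignment names in the count tables carry a tag of 0 hours.

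Most vertebrate snoRNAs are not transcribed on their own. The host transcript is spliced, the intron is debranched and trimmed, and the snoRNA survives inside a particle of core proteins. Box C/D snoRNAs guide methylation of ribose in ribosomal RNA, box H/ACA snoRNAs guide the change of uridine to pseudouridine, and scaRNAs do the same for spliceosomal RNA in Cajal bodies. The spliced exons of Gas5 and several other hosts begin with a run of pyrimidines, as ribosomal protein mRNAs do, and are degraded by nonsense-mediated decay when translated. Gas5 was named for its accumulation in growth-arrested cells.

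The snoRNAs are what these genes are known for, so those on which the counts below turn are shown first. The sequences are GENCODE M21 transcripts in 5′ to 3′ order, written with T, and their positions are on mm10. Capitals in the box C/D RNAs mark TGATGA (box C) in the first 20 bases and CTGA (box D) in the last 20. Snord47 of Gas5 (chr1:161038082-161038158, plus strand) and Gm22744 of Snhg1 (chr19:8725092-8725156, plus strand) stand for the hosts that carry many. Snord50a (chr9:88521529-88521600) and Snord50b (chr9:88521797-88521868) both lie in Snhg5 on the minus strand. Snord87 (chr1:9942463-9942549, minus strand) lies in Snhg6.
Snord47: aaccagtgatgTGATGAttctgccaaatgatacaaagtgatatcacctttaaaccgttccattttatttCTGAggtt
Gm22744: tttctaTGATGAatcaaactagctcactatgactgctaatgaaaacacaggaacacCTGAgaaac
Snord50a: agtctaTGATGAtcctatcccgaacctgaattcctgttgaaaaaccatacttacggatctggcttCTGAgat
Snord50b: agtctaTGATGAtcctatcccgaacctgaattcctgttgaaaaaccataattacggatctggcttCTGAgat
Snord87: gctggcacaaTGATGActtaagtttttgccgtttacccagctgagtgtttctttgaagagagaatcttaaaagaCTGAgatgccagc

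Snord50a and Snord50b differed at 1 of 72 bases, C50A, counted from 1 at the 5′ end with the base of Snord50a first. Box H/ACA RNAs end with ACA 3 bases before the 3′ end, here in capitals. Snora24 (chr3:123507937-123508066, minus strand) is the one small RNA of Snhg8. Snora16a (chr4:132309464-132309600, plus strand) is 1 of 4 in Snhg12 by name, where it has overlapping entries. Snora73b (chr4:132352322-132352526) and Snora73a (chr4:132352775-132352979) lie in Snhg3 on the minus strand, and RNAs of this kind act in the early cutting of ribosomal RNA precursors.
Snora24: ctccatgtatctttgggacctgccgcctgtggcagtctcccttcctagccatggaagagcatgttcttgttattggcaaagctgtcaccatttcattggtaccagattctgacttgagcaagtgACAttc
Snora16a: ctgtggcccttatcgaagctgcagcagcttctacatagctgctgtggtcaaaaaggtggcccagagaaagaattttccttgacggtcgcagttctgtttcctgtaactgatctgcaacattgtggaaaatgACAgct
Snora73b: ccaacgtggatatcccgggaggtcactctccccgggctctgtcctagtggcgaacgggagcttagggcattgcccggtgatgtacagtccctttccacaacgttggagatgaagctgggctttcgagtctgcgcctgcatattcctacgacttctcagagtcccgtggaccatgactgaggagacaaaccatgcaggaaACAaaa
Snora73a: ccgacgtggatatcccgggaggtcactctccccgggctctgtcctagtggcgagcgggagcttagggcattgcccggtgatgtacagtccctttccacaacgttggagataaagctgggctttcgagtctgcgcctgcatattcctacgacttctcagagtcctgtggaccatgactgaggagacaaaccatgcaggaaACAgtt

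Snora73b and Snora73a shared 96.6% of their 205 bases and differed at 7 (A3G, A54G, G111A, C164T, A203G, A204T and A205T, the base of Snora73b first). Both boxes of a C/D RNA were present in 17 of the 33 small RNA genes nested in the 10 hosts and the ACA box alone in 8, while 8 had neither pattern in these exact letters. Over all 1558 snoRNA and scaRNA genes of the annotation, 20.2% had both C/D boxes and 19.1% the ACA box. The nested C/D patterns were in Gas5 (8 of its 10), Snhg1 (5 of 8), Snhg5 (2), Snhg6 (1) and Snhg12 (1). The ACA pattern was in Snhg12 (3 of 5), Snhg3 (2), Snhg8, Snhg15 and Snhg20. Snord80 in Gas5 and Snora16a in Snhg12 each count as 2 genes here, since each has overlapping entries. A match is a description of letters, not of a working snoRNA.

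The libraries held 29041979 to 48808978 counted fragments. T cell markers were abundant, with 7 of 7 genes at 1 TPM or more in every library (counts divided by exon length and scaled to a fixed total in each library), led by Trac, Trbc2 and Lck at 3069, 2932 and 1351 TPM. Markers that define Th17 cells were low, with 3 of 7 at 1 TPM and a summed level of 14.3 to 25.6 TPM. The 3 were Il17f at 9.83, Il17a at 4.22 and Rora at 2.47 TPM on average, while Il23r and Il22 had 8 counts each. Genes of naive T cells were all 5 at 1 TPM, led by Tcf7, Ccr7 and Il7r. The cells are therefore called Th17-labelled here. Of the lists for other cells, B cell markers summed to 2.51 to 3.79 TPM with 0 of 6 at 1 TPM and myeloid markers to 10.8 to 16.5 TPM with 2 of 6. CD8 and NK cell markers summed to 41.4 to 48.7 TPM with 1 of 6 at 1 TPM, of which Cd8b1 made 42.9 TPM on average. Erythroid and platelet markers summed to 2.95 to 3.86 TPM with Alas2, Pf4 and Gp9 at 0 counts. Stromal and epithelial markers summed to 2.18 to 3.04 TPM with Col3a1, Krt8 and Dcn at 0 counts. The part of any of these cells in the host gene levels was not tested. In bulk RNA, fewer cells of a type and less RNA per cell cannot be told apart.

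All 10 host genes reached 1 TPM in every library. Across all genes 23.2% did so, and across long noncoding RNA genes 7.75% did. Of 10 other noncoding snoRNA hosts measured, 5 did. The set was chosen with earlier results of these data known, so its share is not that of a neutral draw. Summed, the 10 host genes of the set reached 817, 776, 789 and 736 TPM in replicates 1 to 4, a mean of 779 ± 33.3 TPM (SD, n = 4). They held 0.0485% ± 0.00244 of all counts and 5.02% ± 0.474 of the counts of long noncoding RNA genes, themselves 0.974% ± 0.115 of all counts. The sum was unevenly divided, since Gas5 alone made 25.2% ± 0.409 of it and Gas5, Snhg8, Snhg1 and Snhg12 together 73.9% ± 1.48. The share of Gas5 depended on length, at 48.6% ± 0.657 of the sum with median transcript lengths and 43.5% ± 0.670 as CPM (counts scaled to a fixed total, without length).

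**Figure D1:**
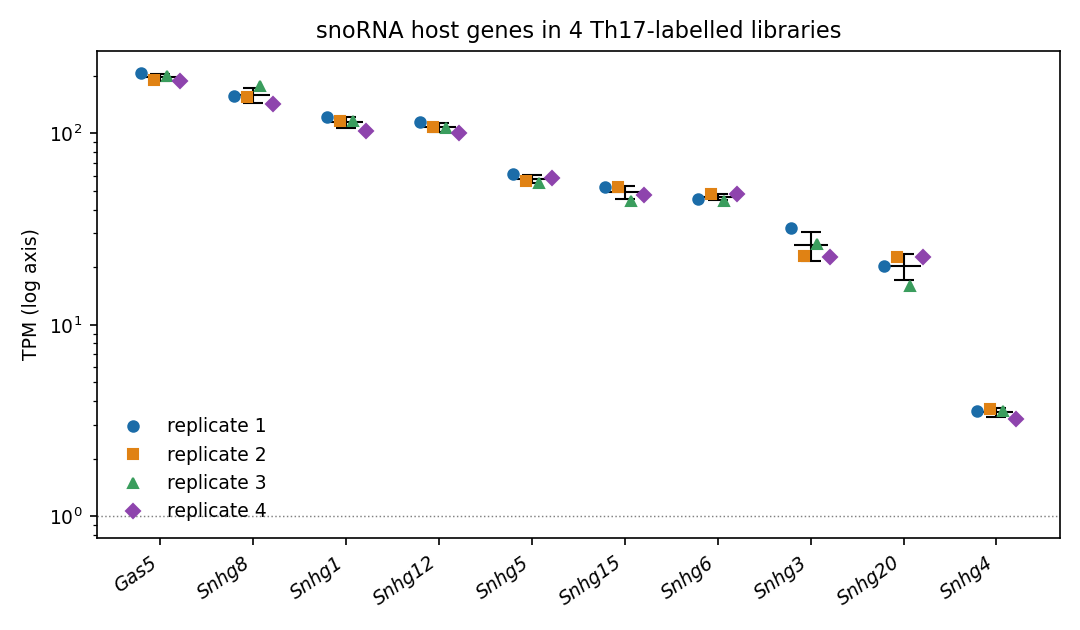
Level of each host gene in TPM (log axis) in each of the 4 libraries, with bars at the mean ± SD (n = 4) and a dotted line at 1 TPM. Gas5 lies highest at 187 to 207 TPM and Snhg4 lowest at 3.22 to 3.65 TPM, with the other 8 between them.

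Gas5 (ENSMUSG00000053332, chr1:161034422-161038539, plus strand), host of 10 annotated small RNA genes, was the most abundant of the set. It was at 207, 190.3, 199.7 and 187 TPM in replicates 1 to 4, from 6481, 7108, 10673 and 9099 fragments. The values lay close together, within a factor of 1.11, and replicate 1 was the highest. Its mean of 196 ± 8.98 TPM (SD, n = 4) ranked 8 among the 8163 long noncoding RNA genes.

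Snhg8 (ENSMUSG00000104960, chr3:123507552-123508404, minus strand), which carries only Snora24, followed at 157, 155, 176 and 143 TPM from 1119 to 2139 fragments. Replicate 3 was high and replicate 4 low. The mean was 158 ± 13.8 TPM and the rank 11. Their distance depended on the length used. With median transcript lengths Gas5 was at 511 ± 27.0 and Snhg8 at 96.1 ± 9.27 TPM, and as CPM at 211 ± 11.4 and 38.6 ± 3.83.

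Snhg1 (ENSMUSG00000108414, chr19:8723475-8726443, plus strand), host of Snord22 and 7 further small RNA genes, was at 122, 116, 116 and 103 TPM. Snhg12 (ENSMUSG00000086290, chr4:132308678-132311024, plus strand), which carries both C/D and H/ACA RNAs, was at 115, 108, 107 and 101 TPM. In both genes replicate 1 was highest and replicate 4 lowest, and the ranges of the 2 genes overlapped. Their means were 114 ± 8.09 and 108 ± 5.60 TPM (SD, n = 4).

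The next 3 genes lay between 44.2 and 61.4 TPM. Snhg5 (ENSMUSG00000097195, chr9:88521050-88522929, minus strand), host of the Snord50 pair, was at 61.4, 56.6, 55.0 and 58.3 TPM. Snhg15 (ENSMUSG00000085156, chr11:6525591-6528760, minus strand), host of Snora9, was at 52.6, 52.6, 44.2 and 47.6 TPM. Snhg6 (ENSMUSG00000098234, chr1:9941959-9944118, minus strand), host of Snord87, was at 45.5, 48.1, 44.4 and 48.1 TPM. Snhg5 lay above the other two in every library, whereas Snhg15 and Snhg6 overlapped and each was the higher in 2 libraries. Means were 57.8 ± 2.75, 49.3 ± 4.12 and 46.5 ± 1.89 TPM.

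Snhg3 (ENSMUSG00000085241, chr4:132348014-132353686, minus strand), the Snora73 host, was at 32.0, 22.9, 26.4 and 22.5 TPM, a mean of 26.0 ± 4.41. Snhg20 (ENSMUSG00000086859, chr11:117076790-117078955, plus strand), which carries the scaRNA gene Gm26083, was at 20.3, 22.6, 15.9 and 22.5 TPM, a mean of 20.3 ± 3.16. Replicate 1 was the high library for Snhg3 and replicate 3 the low one for Snhg20, and the ranges of these genes overlapped.

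Snhg4 (ENSMUSG00000097769, chr18:35553371-35558316, plus strand), which carries Snora74a and Mir1949, was the lowest at 3.52, 3.65, 3.56 and 3.22 TPM, from 137 to 236 fragments. Its mean was 3.49 ± 0.187 TPM (SD, n = 4). Gas5 exceeded it 56.2-fold, a log2 ratio of 5.81 ± 0.08. The row was matched by position because the symbol table lacks Snhg4, and its span shared 99.2% with the RefSeq gene.

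Neighbours in this order did not all differ beyond their spread. The log2 ratio of Gas5 to Snhg8 was 0.32 ± 0.10 (SD, n = 4), of Snhg8 to Snhg1 0.46 ± 0.10, of Snhg12 to Snhg5 0.90 ± 0.07 and of Snhg5 to Snhg15 0.23 ± 0.09, and in each pair the first was higher in 4 of 4 libraries with ranges apart. The steps from Snhg6 to Snhg3 at 0.86 ± 0.28 and from Snhg20 to Snhg4 at 2.53 ± 0.27 were also of 1 direction in 4 of 4 libraries. With the exon length that no other gene shares, the first of these fell to 0.34 and held in 3 of 4 libraries. Snhg1 exceeded Snhg12 by 0.08 ± 0.04 in 4 of 4 libraries although their ranges overlapped. The ratios of Snhg15 to Snhg6, 0.08 ± 0.11, and of Snhg3 to Snhg20, 0.35 ± 0.40, were within their own SD. No test was made of these ratios, since 4 libraries of 1 group cannot give an exact two-sided sign-flip p below 0.05.

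The order also rests on the length by which the counts are divided, which for these genes is far from that of the spliced RNA. The deposited length is the union of all annotated exons. That union covered the whole span of Snhg8, Snhg1 and Snhg20 and 91.3% of Gas5, but 17.4% of Snhg3. In GENCODE M21, 20 of 25 Gas5 transcripts and 14 of 18 Snhg1 transcripts are of the retained intron type, as are 3 of 6 for Snhg5 and 1 of 3 for Snhg8. Snhg3, Snhg6, Snhg12, Snhg15 and Snhg20 have 0 of that type.

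The Gas5 union was 3760 bases, against a median of 502 bases for its transcripts without retained introns. With such median transcript lengths, an alternative chosen after seeing the data, genes without an M21 transcript, Snhg4 among them, kept the union length. Gas5 was then at 511 ± 27.0 TPM and ranked 3 among long noncoding RNA genes. Snhg1 was at 215 ± 16.3 TPM and Snhg8 at 96.1 ± 9.27 TPM, so that their order turned, as did that of Snhg20 at 25.5 ± 3.76 and Snhg3 at 20.4 ± 3.56 TPM. Snhg12 became 66.6 ± 3.74 TPM, and 6 of 10 hosts kept their place. Gas5 stayed first under each length used and as CPM, without length. Snhg4 stayed last, with its length of 4666 bases not shortened in the transcript alternative.

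**Figure D2:**
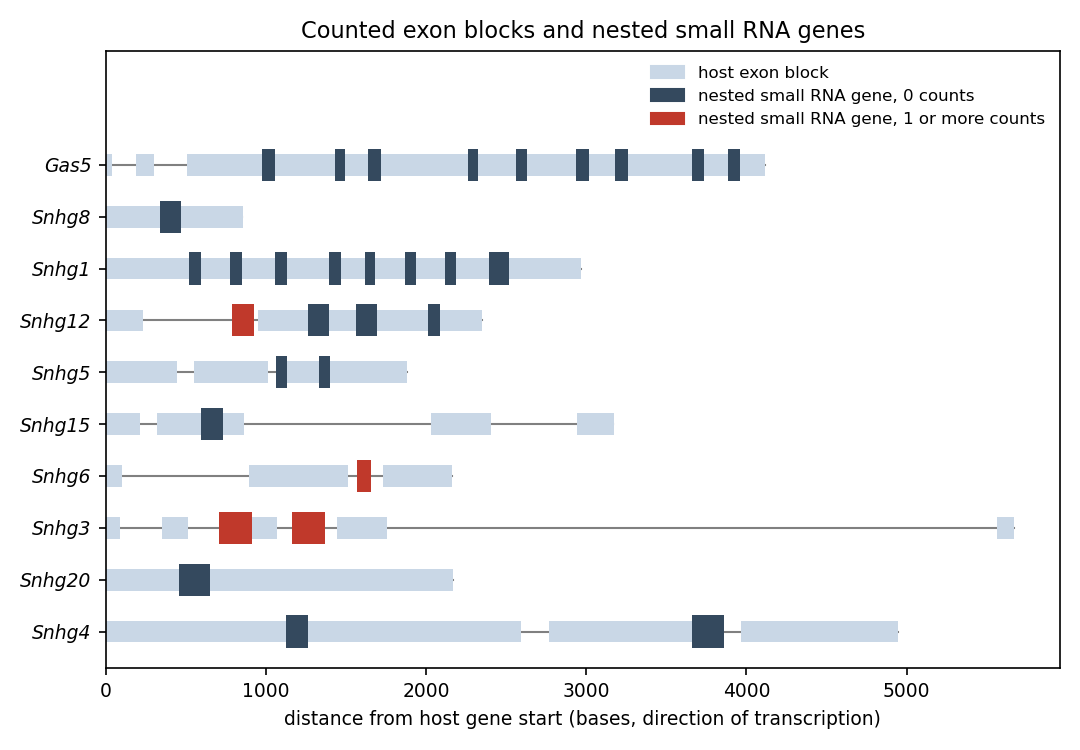
Exon blocks of each host gene as counted (pale bars, union over transcripts) and the small RNA genes nested on the same strand (dark bars, 0 counts in all 4 libraries; red bars, 1 or more counts), by distance in bases from the host's start. Most nested genes lie within an exon block of the counting annotation, and the red bars lie outside one or, for Snora73a, partly outside.

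The nested genes had rows of their own in the tables, 33 in all. Gas5 held 10, Snhg1 8, Snhg12 5, Snhg3, Snhg4 and Snhg5 2 each, and the other 4 hosts 1 each. Snord80 in Gas5 and Snora16a in Snhg12 each had 2 overlapping rows. In M21 the typical place is an intron. Snord47 lies in an intron of 17 and in an exon of 1 of the 25 Gas5 transcripts, and Snord50a in an intron of 5 and an exon of 1 of the 6 Snhg5 transcripts. Not all are so placed. Of the 18 Snhg1 transcripts, Gm22744 lies in an intron of 7 and an exon of 7, and Gm25855 in an intron of 1 and an exon of 2. In the union of exons used for counting, however, 28 of the 33 lay wholly inside a host exon block, 4 outside and 1 partly inside.

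Position and count went together. Of the 28 rows inside host exons, 0 had a fragment in any library. A fragment there overlaps host exons as well, so this counting cannot give it to the nested gene alone. A listed 0 for Snord47, Snora24 or Snord50a therefore holds no measurement of that snoRNA. Of the 5 remaining rows 4 had fragments. Of all 1558 snoRNA and scaRNA rows in the tables, 155 had all bases shared with another gene on their strand, and 0 of these had a fragment. A fragment was present in 30 of 64 rows (46.9%) with some bases shared and in 187 of 1339 (14.0%) with none shared.

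Snora73b, outside the exons of Snhg3, had 20, 26, 38 and 32 fragments, or 12.4 ± 0.612 TPM (SD, n = 4), the most of the nested genes. Its near copy Snora73a, with 159 of its 205 bases in an exon block, had 7, 17, 0 and 4 fragments. The first was even across libraries and the second was listed at 0 in replicate 3. With 96.6% of bases in common, fragments that matched both copies could not be assigned to either, so the split between them is uncertain. In M21, Snora73b lies in an intron of 5 of 5 Snhg3 transcripts and Snora73a in an intron of 4 of 5. Fragments of unspliced RNA would be counted there as well, so these counts may not be of the snoRNAs alone. The part of such fragments was not tested.

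Snora16a in Snhg12 had 3, 1, 3 and 1 fragments and Snord87 in Snhg6 had 1, 2, 2 and 2. These are at or under 3 counts per library, the limit that a count of 0 allows. They give no usable level. The Snora16a row with fragments has 137 bases, and the other, at 0 counts, has 136 that all lie within it. A fragment that fits both rows equally is assigned to neither, so the Snora16a counts hold no measurement of most of that snoRNA.

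The hosts may have lost fragments on shared bases too, by an amount that was not measured. Exon bases shared with another gene on the same strand made 29.8% of the length of Snhg3, 20.9% of Snhg1, 20.5% of Snhg12, 17.8% of Gas5 and 15.2% of Snhg8. For Snhg4, Snhg20, Snhg15 and Snhg5 the share was 12.6%, 9.93%, 9.79% and 8.32%, and for Snhg6 it was 0%. The unshared length treats shared bases as if no fragment on them was counted for the host, which may correct too far. Dividing by the unshared length raised Gas5 to 235 ± 10.8, Snhg8 to 184 ± 16.1, Snhg1 to 143 ± 10.1 and Snhg3 to 36.5 ± 6.19 TPM. The order of the 10 means was the same, but some steps changed in size. Snhg15 exceeded Snhg6 by a log2 ratio of 0.23 in 4 of 4 libraries instead of 2, and Snhg3 exceeded Snhg20 by 0.71 in 4 of 4 instead of 3.

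Several hosts start beside a protein-coding gene. Slc3a2, which encodes the heavy chain of an amino acid transporter, starts 106 bases from Snhg1 on the other strand and was at 90.7 ± 2.83 TPM (SD, n = 4). Snhg1 exceeded it by a log2 ratio of 0.33 ± 0.14, in 4 of 4 libraries. Zbtb37, a zinc finger gene, starts 427 bases from Gas5 on the other strand and was at 27.7 ± 3.49 TPM, a log2 ratio of 2.83 ± 0.16 in favour of Gas5.

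Rcc1, which encodes the chromatin-bound exchange factor of Ran, starts 81 bases from Snhg3 on the same strand and shares 135 exon bases with it. Rcc1 was at 27.5 ± 1.83 TPM and the log2 ratio of Snhg3 to it was -0.10 ± 0.23, with Snhg3 higher in 1 of 4 libraries. This ratio rests on the deposited exon lengths. Snhg3 was at 36.5 ± 6.19 TPM with unshared length and 20.4 ± 3.56 TPM with median transcript length, and the ratio was not computed with those lengths. The noncoding gene Gm17300, which overlaps 705 exon bases of Snhg3 on the other strand, had 0 counts. Mcmdc2, which overlaps 127 exon bases of Snhg6 on the other strand, was at 0.283 ± 0.148 TPM. A gene without a symbol (ENSMUSG00000099703) shares 246 exon bases with Snhg4 on its strand and had 93 counts.

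Start sites were read from the RefSeq promoter table (GRCm38.p6), which matched 8 of the 10 hosts with 9 windows, 2 of them for Gas5. Snhg4 and Snhg6 were not matched. The windows below run 20 bases either side of the annotated start, which is letter 21, on the gene's strand. They are shown because several hosts are known for a pyrimidine run at the start. Capitals mark a C followed by 4 or more letters that are each C or T, searched on the gene's strand alone.
Gas5, second window, chr1:161035146-161035185: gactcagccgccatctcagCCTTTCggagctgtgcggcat
Snhg12, chr4:132308658-132308697: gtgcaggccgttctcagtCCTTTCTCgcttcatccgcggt
Snhg8, chr3:123508317-123508356: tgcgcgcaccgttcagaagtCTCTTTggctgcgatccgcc
Snhg3, chr4:132353667-132353706: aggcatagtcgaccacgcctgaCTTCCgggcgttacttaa
Snhg5, chr9:88522878-88522917: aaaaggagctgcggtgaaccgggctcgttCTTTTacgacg
Snhg1, chr19:8723467-8723506: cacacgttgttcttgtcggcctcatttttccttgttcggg

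Such a run was in 5 of 9 member windows (55.6%), in 45.9% of all 32851 windows and in 69.7% of the 76 windows of ribosomal protein genes. Runs whose first letter lay at the start or up to 2 bases before it were in 3 member windows, those of Gas5, Snhg12 and Snhg8. The same held for 5.44% of all windows and for 23.7% of ribosomal protein gene windows. Snhg1, Snhg15 and Snhg20 had no run in these letters within the window. The first Gas5 window, with its start at chr1:161034601, had none either. The search pattern was chosen after the sequences were seen, and annotated starts can differ from those used in these cells, which were not measured here.

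The spread between libraries was small for most hosts. The coefficient of variation of TPM was 4.07% for Snhg6, 4.58% for Gas5, 4.75% for Snhg5, 5.20% for Snhg12 and 5.37% for Snhg4. It was 7.07% for Snhg1, 8.37% for Snhg15 and 8.75% for Snhg8, and largest for Snhg20 at 15.5% and Snhg3 at 17.0%. Counting error alone would give 1.11% for Gas5, 5.99% for Snhg3 and 4.56% for Snhg20, but 7.48% for Snhg4 and 4.13% for Snhg6, where the observed spread was no larger. The hosts' median was 6.22%, beside 7.94% for all 12464 genes past the count filter and 19.1% for the long noncoding RNA genes among them. Depth differed between these sets, with a median of 939 fragments per library for the hosts, 1054 for all genes past the filter and 67 for the long noncoding RNA genes.

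edgeR's quasi-likelihood dispersion was tested against its trend, which asks whether a gene varied more between libraries than genes of like abundance. With Benjamini-Hochberg adjustment over all 12464 genes, 0 of 10 hosts were called at an adjusted p below 0.05, beside 0.193% of all genes. At an unadjusted p below 0.05 the count was 0 of 10 hosts beside 5.34% of all genes, and as DESeq2 dispersion outliers 0 of 10 beside 0.866%. The smallest p was that of Snhg20, 0.127 in edgeR, with an adjusted p of 0.981 and a quasi-dispersion 2.69 times the trend. On simulated counts in which 1 library was changed, the test recovered 17% of 2-fold and 82% of 4-fold changes, so smaller differences between libraries could pass unseen.

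**Figure D3:**
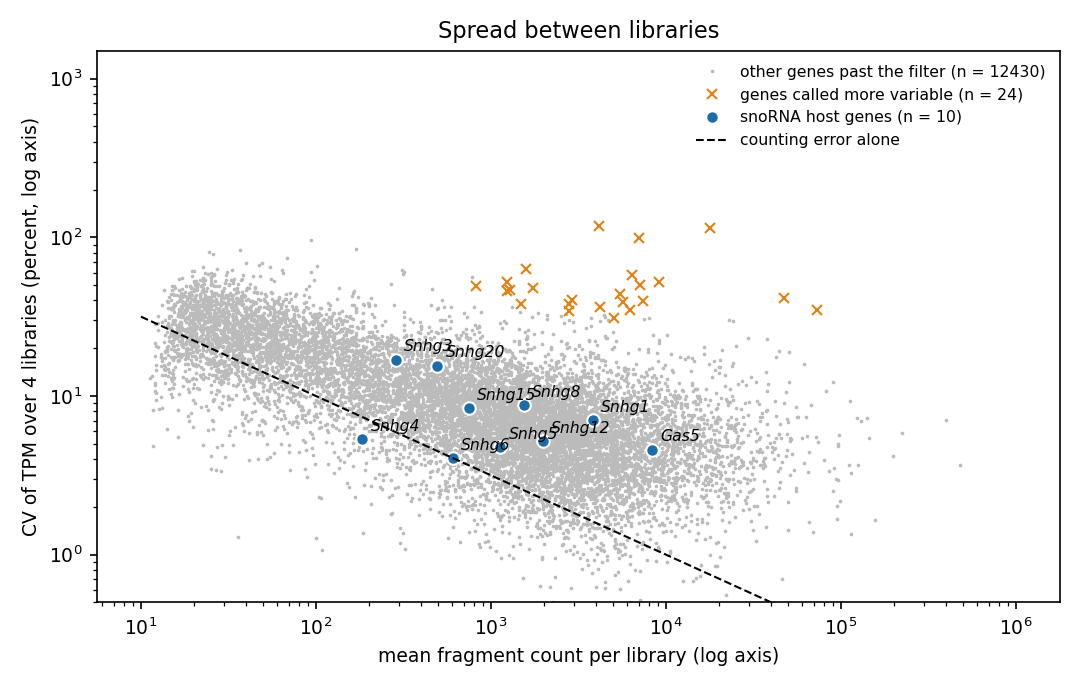
Coefficient of variation of TPM over the 4 libraries (percent, log axis) against the mean fragment count per library (log axis) for all 12464 genes past the filter, with the 10 host genes in blue, the 24 genes called more variable by edgeR as crosses, and counting error alone as a dashed line. The hosts lie within the cloud of other genes, Snhg3 and Snhg20 in its upper part at 17.0% and 15.5%, and Snhg4 and Snhg6 on or under the dashed line.

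The libraries were not equal in their host gene levels. Replicate 1 was the highest library for 6 of 10 hosts and the lowest for 0, and replicate 4 was the lowest for 6 and the highest for 0. The mean log2 deviation over the 10 hosts was 0.08, 0.01, -0.03 and -0.06 in replicates 1 to 4. The median deviation of all genes past the filter ran the same way, at 0.03, 0.02, -0.02 and -0.02, with 33.3% of those genes highest in replicate 1 and 35.7% lowest in replicate 4. With TPM divided by TMM factors, which aim at a common level for the bulk of genes, replicate 1 was highest for 5 hosts and lowest for 0. Replicate 4 was lowest for 4 hosts, as was replicate 3, and replicate 4 was highest for 2. After this scaling the hosts' mean deviations were 0.05, 0.01, -0.04 and -0.03. The median deviations of all genes past the filter were then 0.002, 0.015, -0.022 and 0.009, so their level was not fully evened. In log2 CPM with TMM factors the hosts' mean deviations were 0.056, -0.005, -0.013 and -0.039. Replicate 1 was highest on both scales, while the order of replicates 3 and 4 depended on the scale. Replicate 1 was also the shallowest library, with the largest share of counts in long noncoding RNA genes (1.11%, against 0.866% in replicate 4). Its summed Th17 markers were the highest too, at 25.6 TPM against 16.7, 14.3 and 14.3 in replicates 2 to 4. The part of these in the host gene levels was not tested.

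**Figure D4:**
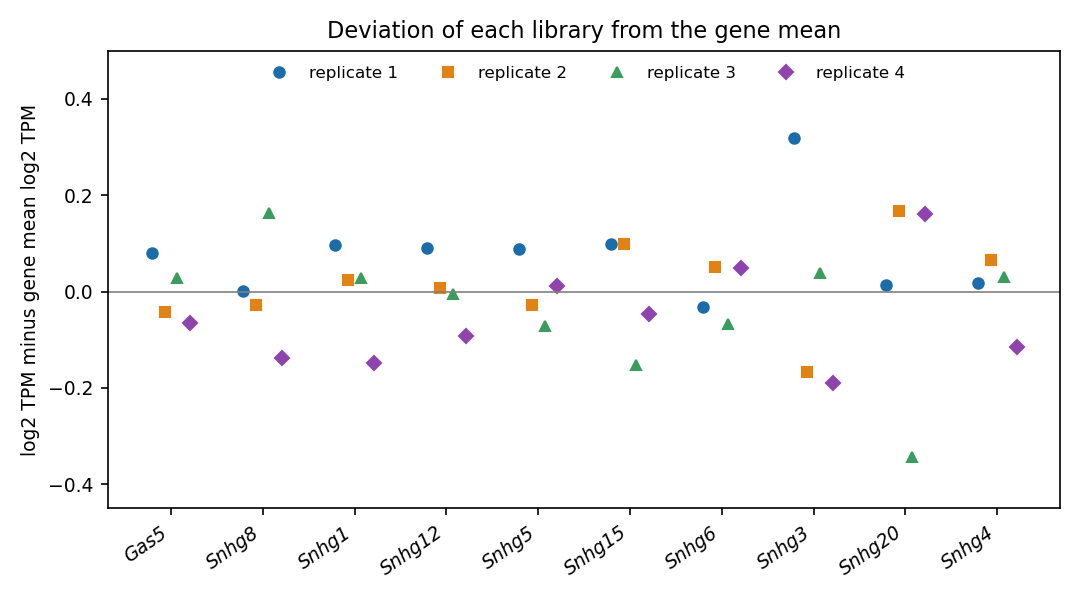
Deviation of each library's log2 TPM from the gene's mean over the 4 libraries, for each host gene. Replicate 1 is highest for 6 genes and replicate 4 lowest for 6, and the widest deviations are 0.32 for Snhg3 in replicate 1 and -0.34 for Snhg20 in replicate 3.

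By the smallest root mean square difference from the hosts' mean deviation in log2 CPM over the 4 libraries, the genes nearest in pattern were Wipi2 (0.00698), Isoc1 (0.00699), Map3k5 (0.00739), P3h1 (0.00790) and Exoc8 (0.00825). With deviations this small, 46.9% of the other 12454 genes past the filter lay within 0.1 of the same pattern.

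Genes that make or handle snoRNAs give the hosts their setting. All 8 core proteins of the snoRNA particles reached 1 TPM in every library, with a median of 62.2 TPM. They were led by Nop56, a C/D core protein whose own gene hosts 5 small RNA genes, at 144 ± 4.55 TPM (SD, n = 4), and by the H/ACA proteins Nop10 at 135 ± 2.90, Nhp2 at 84.9 ± 2.89 and the pseudouridine synthase gene Dkc1 at 78.3 ± 1.83 TPM. All 11 assembly factors did so too, with a median of 30.9 TPM, led by the nucleolar chaperone gene Nolc1 at 114 ± 4.33, the ATPase gene Ruvbl2 at 67.9 ± 1.62, Pih1d1 at 52.6 ± 3.10 and Ruvbl1 at 36.0 ± 1.90 TPM. The hosts' own median was 53.5 TPM and that of all genes past the filter 25.0 TPM.

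These counts stand beside 23.2% of all genes and 45.6% of protein-coding genes at 1 TPM in every library, and the lists are short selections from each process. Of the intron release and decay genes 11 of 11 reached 1 TPM in every library, and their median was 54.7 TPM, led by the nuclear exonuclease gene Xrn2 at 196 ± 12.4, the exosome genes Exosc10 at 121 ± 4.46 and Exosc3 at 80.6 ± 2.14, and the helicase gene Mtrex at 99.3 ± 3.45 TPM. The same held for 14 of 14 nonsense-mediated decay genes, with a median of 94.4 TPM, led by the kinase gene Smg1 at 203 ± 17.3, the helicase gene Upf1 at 179 ± 9.92 and the exon junction genes Eif4a3 at 171 ± 6.06 and Magoh at 147 ± 5.63 TPM. It also held for 13 of 13 regulators of mRNAs with a pyrimidine start, with a median of 35.8 TPM. Among these were the RNA-binding protein genes Cnbp at 520 ± 15.2, Ssb at 277 ± 10.2 and Larp1 at 138 ± 5.94 TPM and the translation repressor gene Eif4ebp2 at 316 ± 20.1 TPM. None of the genes in these 5 lists was called more variable by edgeR, beside 0.193% of all genes.

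**Figure D5:**
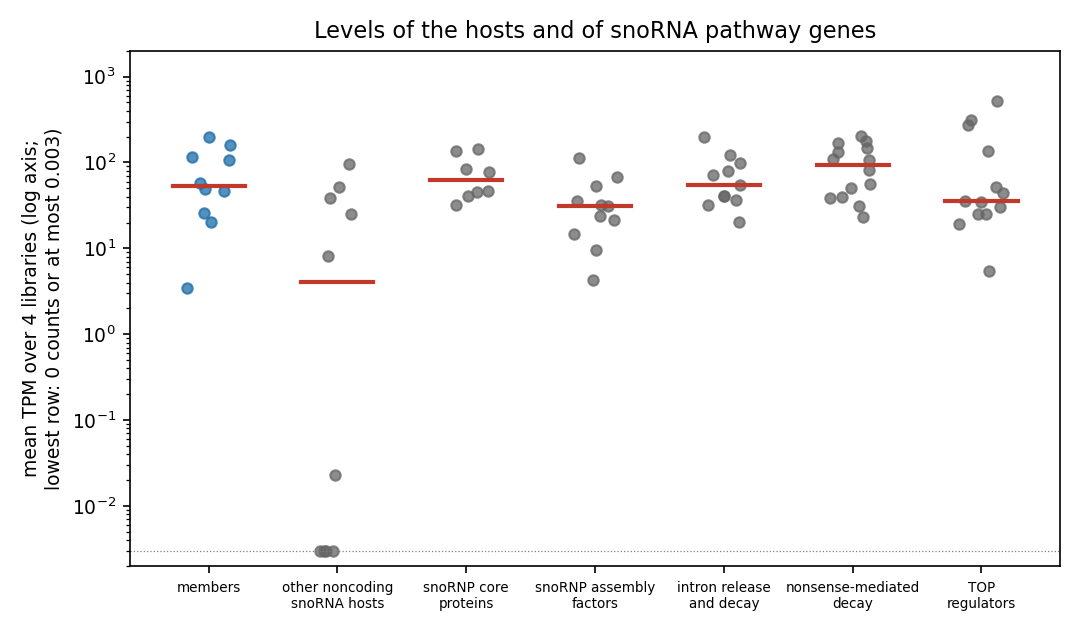
Mean TPM over 4 libraries (log axis) of each gene in the host set (blue) and in 6 lists of related genes (grey), with list medians as red lines. The lowest row holds genes with 0 counts or at most 0.003 TPM. Every list but that of other noncoding hosts lies above 1 TPM.

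Other noncoding snoRNA hosts included abundant genes and genes at or near 0 counts. Of the 12 listed, 10 were measured (Snhg7 and Snhg10 were not matched) and 5 reached 1 TPM in every library. Epb41l4aos was at 97.1 ± 4.67, Zfas1 at 51.9 ± 1.15, Snhg17 at 39.1 ± 2.34 and Snhg16, listed as 1810032O08Rik, at 25.3 ± 3.00 TPM (SD, n = 4), within the range of the 10 hosts. Snhg11, Snhg18 and the imprinted gene Meg3 had 0 counts over 4 libraries, the imprinted gene Rian had 1 and Snhg14 had 27. A listed 0 allows up to 3 counts per library.

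Protein-coding snoRNA hosts covered a wider range. Of 273 such genes, which include Snhg11 as M21 types it, 202 reached 1 TPM in every library, or 74.0%, beside 45.6% of all protein-coding genes. Their median was 29.5 TPM. The elongation factor gene Eef2 at 5220.4 ± 219, Rpl4 at 4999 ± 164 and Tpt1 at 4511 ± 327 TPM were among the highest. Of the 209 that passed the count filter, 1 was called more variable by edgeR, beside 0.193% of all genes that passed it. This was Hspa8, which encodes a constitutive heat shock protein and hosts 3 small RNA genes. It was at 601, 883, 761 and 1490.1 TPM, highest in replicate 4, with an edgeR adjusted p of 0.0320. Over the alternatives that adjusted p ran from 3.27e-31 without a count filter to 0.108. The fit without a filter called 349 of 21421 genes, beside 24 of 12464 in the main fit, so its small value is not particular to Hspa8. The call was lost without replicate 3 (0.0976), with a fit that was not robust (0.0919) and when genes under a mean CPM of 5 were dropped (0.108).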

How the data were processed

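RNA was sequenced from 4 libraries of 1 group. Per the file headers, the authors made the deposited values, raw counts of fragments per gene, with featureCounts 1.4.6-p4. They used GENCODE M13 exons on mm10 and counted read pairs with both ends mapped, set to the reverse strand. No option for fragments that map to several places or overlap several genes appears there. Fragments that map to several places, or that fit several genes equally, were therefore left out. The version of the aligner was not given in the sources used here. Text listings of files were not used.

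GENCODE M21 gave symbols for 50376 of 50600 gene IDs, and Snhg4 was matched by RefSeq position. TPM was computed from counts and the deposited exon length, with no pseudocount. Library totals were 29041979, 35018552, 48808978 and 45490373 counts, and limits of 3 counts cover counting error only. All pairs of replicates differed beyond sampling noise, by a chi-square of 9.88 to 31.4 per degree of freedom.

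Spread was tested with edgeR 4.0.16 in R 4.3.3: an intercept-only fit with TMM factors, filterByExpr and a robust prior, and a one-sided F test of each quasi-dispersion against the prior trend. Of 12464 genes 24 were called, and the common biological coefficient of variation was 9.80%. The test was checked on simulated data for these 12464 genes, with 5 false calls among 104. DESeq2 1.42.0 gave an alternative, as did other filters, lengths, library totals and leaving out each replicate. Python 3.11.15, numpy 2.4.6, pandas 2.3.3, scipy 1.17.1 and matplotlib 3.10.9 were used for the rest.

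Members and gene lists were chosen with earlier results of these data known. Named genes were the 10 members, up to 2 nested small RNA genes a host by count (others are named as examples of position or sequence), genes overlapping a host's exons or starting within 1000 bases on the other strand (Rcc1 overlaps on the same strand), up to 4 genes a list by TPM and those called, up to 3 markers a list by TPM and those at 0 counts, and the 5 genes nearest in pattern. Il23r and Il22 were added after their values were seen, as were Snhg14 and Rian. A few genes under this rule are not reported here. Levels, order and nested genes had no test.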

Additional observations from a re-analysis of the deposited data

How the results depend on the processing

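The hosts' median level was 53.5 TPM, and became 58.0 with unshared exon length, 41.8 with median transcript length (chosen after seeing the data) and 23.9 as CPM, without length. Their sum was 779 TPM, and became 920.2 with unshared exon length, 1052.4 with median transcript length, 485 as CPM and 822 without mitochondrial genes. Order kept 5 of 10 places as CPM and 6 with median transcript length. The nested genes numbered 33 by annotated type and 18 by names in Snord or Snora. Leaving out each replicate gave a median of 52.4 to 54.9 TPM and a sum of 767 to 794 TPM, with all 10 places kept. With a pseudocount of 1 the log2 ratio of Snhg20 to Snhg4 fell from 2.53 to 2.24. Hosts called more variable stayed at 0 under each alternative, of which the filter at a mean CPM of 5 tested 9. Over all genes edgeR called 24, 349 with no filter, 10 with a mean CPM of 5 or more, 5 when not robust, 17 with the quasi-likelihood of version 4 (also chosen later) and 7 to 86 without 1 replicate (30 without replicate 1, 13 without 2, 7 without 3 and 86 without 4), and DESeq2 called 108. The causes of these changes were not tested, beyond the lengths and totals divided by. Hosts' rank and spread are limited by depth most for Snhg4, at 137 to 236 fragments. No paired analysis was possible because there is only 1 group.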
